A study of Mus musculus with 8 samples.

Results

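Collagen genes were followed in brain CD11b+ cells of mice given lipopolysaccharide (LPS) or saline. They were taken as every non-control probe whose gene name in the scanner files had the form Col, a number, a and a number, which gave 92 of 56599 probes and 44 of 36589 gene names: 11 fibrillar, 8 basement membrane and 25 other collagens. The LPS group was 4 tubes of cells from male C57BL/6N mice 7 days old, taken 24 h after LPS, a cell wall component of Gram-negative bacteria that sets off inflammation. The saline group was 4 tubes from mice of the same strain, sex and age, taken 24 h after saline. Every tube pooled the brains of 2 mice and was hybridised to 1 single-colour Agilent array, and no allele or further agent is named for either group. CD11b is an integrin of microglia and other myeloid cells, and the cells were caught with magnetic beads, a step that can leave other cells in the fraction.

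Collagens are the triple-helical proteins of the extracellular matrix, in which glycine returns after each pair of other residues. Fibrillar collagens assemble into the tough fibres of connective tissue, type IV collagen forms the sheet of basement membranes, and the other collagens decorate fibrils, form filaments or span the cell membrane. In the brain they are made mainly by fibroblasts of the meninges and vessels, by pericytes, smooth muscle and endothelium, and by the choroid plexus stroma, while microglia are not a major source.

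The repeat that defines the family can be read on the array itself. Of all 56599 probes of 60 bases, 9 had an open reading frame with a glycine codon (GGN, in capitals) at steps of 3 codons, and 4 of these were collagen probes, shown here as deposited, 5′ to 3′.
Col11a2 (mm9 chr17:34189287-34189453, plus strand): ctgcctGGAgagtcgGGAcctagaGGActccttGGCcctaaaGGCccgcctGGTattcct
Col15a1 (mm9 chr4:47283786-47283845, plus strand): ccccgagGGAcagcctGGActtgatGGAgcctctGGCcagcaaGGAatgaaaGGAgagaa
Col5a3 (mm9 chr9:20590066-20590795, minus strand): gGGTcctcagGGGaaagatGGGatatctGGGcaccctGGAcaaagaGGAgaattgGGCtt
Col6a3 (mm9 chr1:92689602-92690594, minus strand): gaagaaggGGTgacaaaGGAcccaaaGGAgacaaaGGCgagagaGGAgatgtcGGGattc
The Col15a1 probe lies in 60 contiguous bases of the genome. The probes of Col11a2, Col5a3 and Col6a3 span 167, 730 and 993 bases, more than their 60 letters, so each bridges a gap in the genomic sequence. The Col15a1 probe is the one that stands for its gene below. The Col6a3 probe was lower after LPS (log2 difference -0.49 ± 0.17, adjusted p = 0.0425 in limma over all probes). The Col11a2 probe was not called (-0.31 ± 0.17, adjusted p = 0.153), and the Col5a3 probe was not well above background on any array.

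All levels below are log2 signal minus the array's 75th percentile, for the gene's brightest probe, and all differences are LPS minus saline ± standard error with 4 arrays per group. The levels rank arrays for 1 gene and do not rank genes, since probes differ in how brightly they bind. Of the 44 genes, 38 had a probe that was well above background on 4 or more of the 8 arrays, and these were tested among 22509 genes with limma, with 49.3% of all genes called in either direction. Fibrillar Col24a1, beaded filament Col6a4 and Col6a6, the cartilage network collagen Col10a1, fibril-associated Col19a1 and Col28a1 were not well above background on any array. LPS arrays had a median processed signal of 11.7 to 17.3, and saline arrays one of 15.5 to 21.5. Collagen genes well above background numbered 32 to 38 on the LPS arrays and 36 to 38 on the saline arrays. All 10 microglia markers were well above background on every array. So were all 12 fibroblast and meningeal, all 12 endothelial and all 10 astrocyte markers read below, so this reading does not single out microglia.

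Collagen expression was lower after LPS. Of the 38 genes tested, 27 were lower (71.1%) and none was higher at an adjusted p under 0.05, where 21.5% of all genes tested were lower and 27.8% were higher. At an unadjusted p under 0.05 the count higher was 0 as well. The difference was below 0 for 37 of the 38 genes, against 48.2% of all genes, and its median was -1.02, a 2.03-fold lower signal, against 0.02 over all genes. In 22 genes every LPS array lay below every saline array, a pattern that 18.9% of all genes showed, and in none did every LPS array lie above, as in 25.8% of all genes. A lower call with at least a 2-fold difference was made for 18 genes, where 5.75% of all genes had one. Of the 31 collagen genes well above background on all 8 arrays, 25 were lower, against 22.2% of such genes in all.

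**Figure D1:**
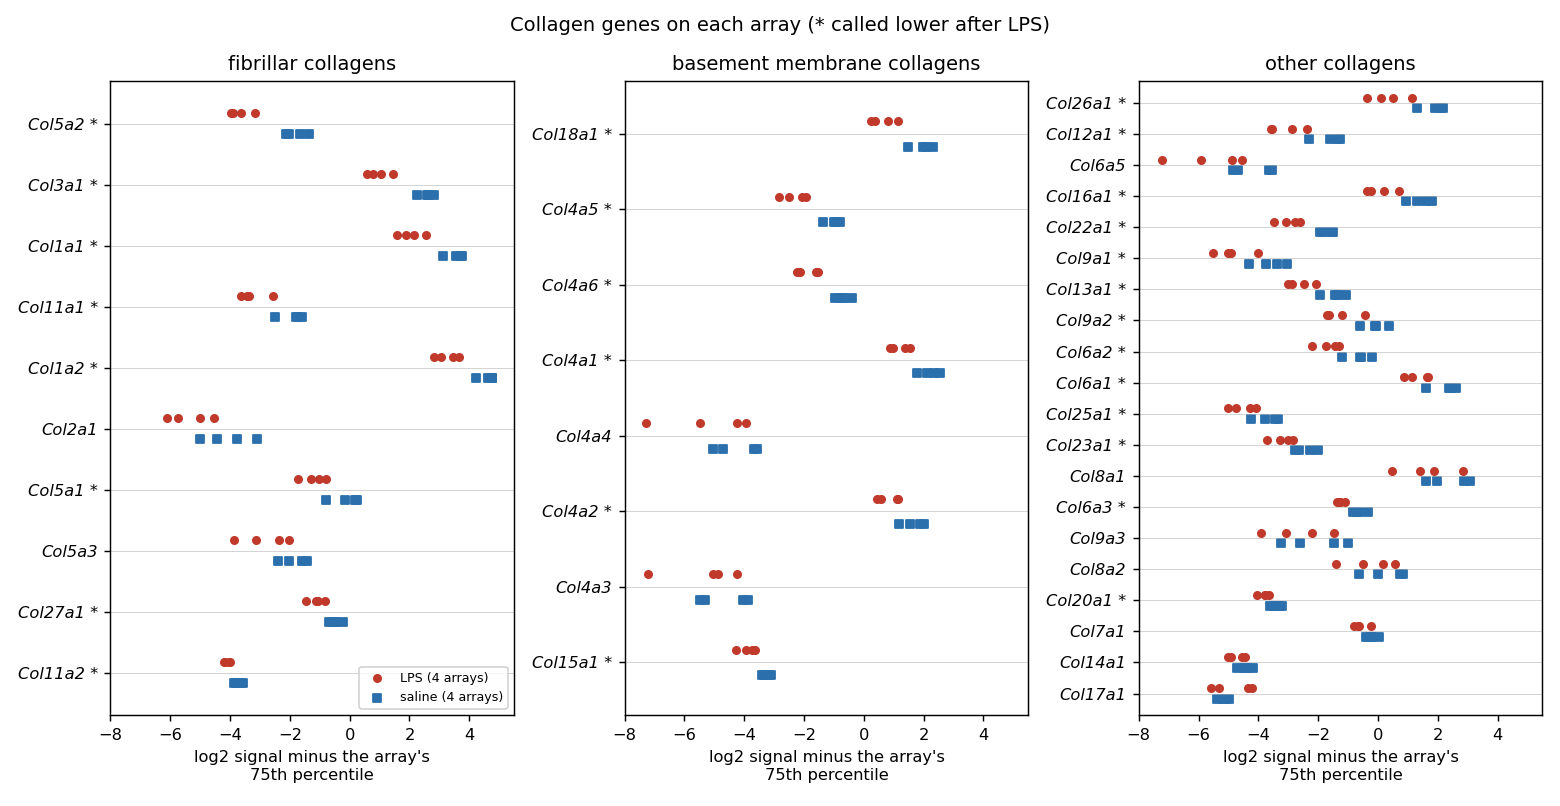
Level of each tested collagen gene on every array, as log2 signal minus the array's 75th percentile (x axis), with LPS arrays as red circles above saline arrays as blue squares, split into fibrillar, basement membrane and other collagens. Asterisks mark the 27 genes called lower after LPS, and in 22 of them the red circles lie wholly left of the blue squares.

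Under each of 3 other scalings of the arrays, 37 of the 38 differences again lay below 0, while the count of calls varied. With each array scaled to its median, the median of all genes moved to 0.24 and the median collagen difference was -0.80. There 24 collagen genes and 11.6% of all genes were lower, and 27.2% of all calls were lower against 43.6% in the scaling used here. With the 75th percentile taken only over probes that were well above background throughout, the median of all genes was -0.13 and that of the collagens -1.17, with 29 collagen genes and 32.2% of all genes lower. The collagen level also followed the brightness of the arrays within each group, and in a fit that takes each array's median signal into account 15 collagen genes and 14.9% of all genes were lower, with a median collagen difference of -0.47. Background correction by normexp with an offset of 50 gave 22 collagen genes lower and 1 higher, with a median of -0.42, where 17.4% of all genes were lower.

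The fibrillar class held the 2 largest differences, those of Col5a2 and Col3a1. Of its 11 genes, 10 were tested, 8 were lower and 7 did not overlap between groups, with a median difference of -1.31. Over all genes tested, 21.5% were lower and 18.9% lay lower without overlap. Basement membrane collagens were lower in 6 of 8 genes, all 6 without overlap, with a median of -0.99. The 25 other collagens gave 20 tested genes, 13 lower and 9 without overlap, with a median of -0.89. The 3 classes overlapped widely, spanning -1.87 to -0.38, -1.32 to -0.64 and -1.52 to 0.29, and the difference between classes was not tested.

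**Figure D2:**
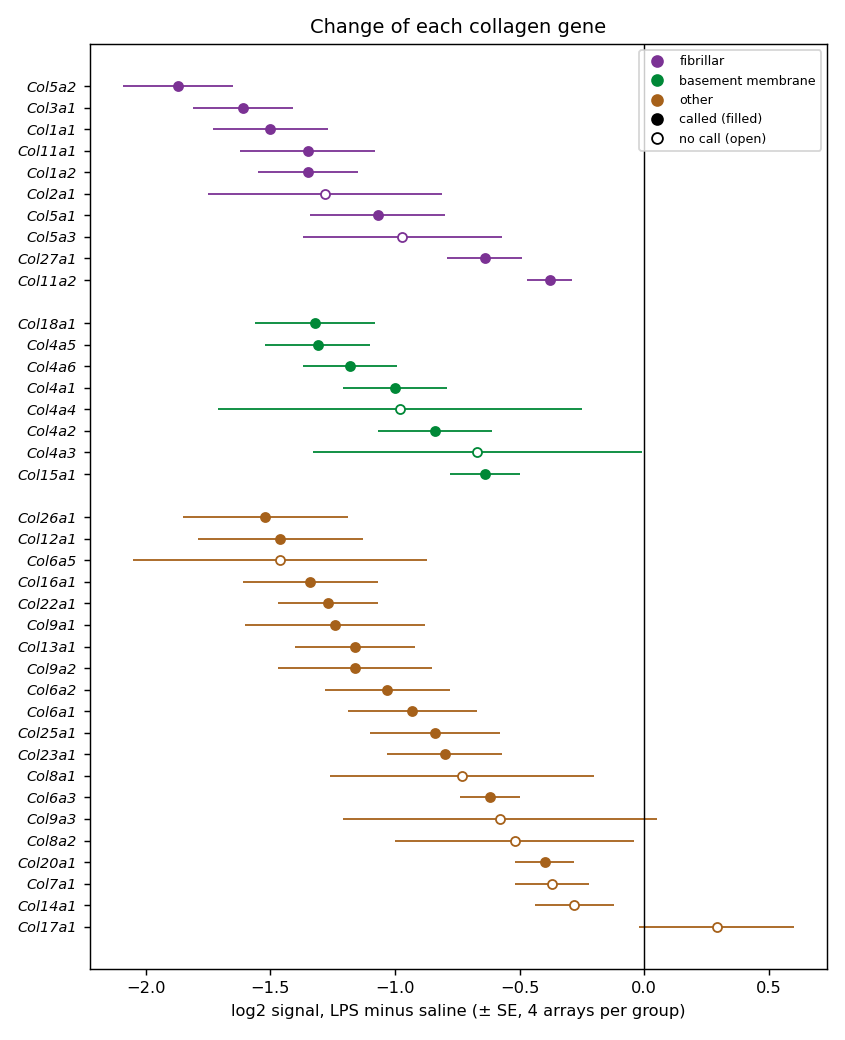
Difference of each of the 38 collagen genes (x axis, log2 LPS minus saline, points with bars of 1 standard error, 4 arrays per group), grouped and coloured by class, with filled points for genes called lower and open points for no call. All points except that of Col17a1 lie left of 0, and the fibrillar genes reach furthest left, to -1.87 for Col5a2.

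Type I and type III collagen make up the bulk of interstitial fibrils. Col3a1, the single chain of type III collagen, had levels of 0.59, 0.77, 1.44 and 1.04 on the LPS arrays, against 2.64, 2.26, 2.82 and 2.58 on the saline arrays. Every LPS value lay below the lowest saline value, and the difference was -1.61 ± 0.20 (3.05-fold lower, limma adjusted p = 0.00087). Col1a1, which encodes the α1 chain of type I collagen, had levels of 1.58, 1.87, 2.56 and 2.15 after LPS, against 3.75, 3.12, 3.72 and 3.56 after saline. The groups were again apart, with a difference of -1.50 ± 0.23 (2.83-fold lower, adjusted p = 0.00158). Col1a2, the partner chain of Col1a1 in the same triple helix, had levels of 2.82, 3.04, 3.65 and 3.44 after LPS, against 4.76, 4.21, 4.76 and 4.64 after saline. It too did not overlap and fell by 1.35 ± 0.20 on the log2 scale, as all such values below (2.56-fold, adjusted p = 0.0016).

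Type V and type XI collagens sit inside the fibrils of type I and type II collagen and set their diameter. Col5a2 had the largest difference of all 38 genes, with levels of -3.90, -3.96, -3.18 and -3.62 after LPS, against -2.02, -2.13, -1.35 and -1.66 after saline. The groups lay apart by more than the range within either, with a difference of -1.87 ± 0.22 (3.66-fold lower, adjusted p = 0.000835). Col5a1, its partner chain, had levels of -1.72, -1.30, -0.78 and -1.01 after LPS, against -0.15, -0.78, 0.23 and 0.19 after saline. Its brightest LPS array reached the dimmest saline array, and the difference of -1.07 ± 0.27 passed the test (adjusted p = 0.0127). Col5a3, the third type V chain, averaged -2.85 ± 0.82 after LPS and -1.88 ± 0.44 after saline (SD, n = 4 each) with no call (limma adjusted p = 0.0746). Its LPS arrays spread more widely than those of Col5a1 or Col5a2.

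Col11a1, a chain of type XI collagen, had levels of -3.43, -3.65, -2.58 and -3.38 after LPS, against -1.78, -2.51, -1.61 and -1.74 after saline. The groups did not overlap, and the difference was -1.35 ± 0.27 (2.55-fold lower, adjusted p = 0.00496). A second Col11a1 probe was well above background on all 4 saline arrays and on 0 LPS arrays. It passed the filter only through the saline group, where it is high, so its call (limma adjusted p = 0.00197) adds little. Its signal was at least 2.04-fold lower after LPS. This bound takes, for each LPS array, whichever is higher of the dimmest signal still above background there and what the probe itself read. Col11a2, the second type XI chain, differed by -0.38 ± 0.09 with little spread and no overlap (adjusted p = 0.00864), and its call was lost when arrays were scaled to their median. Col27a1, a fibrillar collagen of developing cartilage, fell by 0.64 ± 0.15 without overlap (adjusted p = 0.00904), a call also lost with that scaling. Col2a1, the main collagen of cartilage, had levels of -6.10, -4.55, -5.02 and -5.75 after LPS, against -3.76, -5.02, -3.11 and -4.43 after saline. It was well above background on 2 LPS and 4 saline arrays, its groups overlapped, and its difference of -1.28 ± 0.47 missed the threshold (adjusted p = 0.0513).

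Type IV collagen is built from 6 chains that assemble in fixed sets of 3 into the network of basement membranes. Col4a1 and Col4a2, the chains found in nearly every basement membrane including that of brain vessels, were both lower. Col4a1 had levels of 0.86, 0.98, 1.55 and 1.36 after LPS, against 2.10, 1.77, 2.55 and 2.33 after saline, with no overlap and a difference of -1.0 ± 0.21 (2.00-fold lower, adjusted p = 0.00545). Col4a2 had levels of 0.44, 0.56, 1.12 and 1.14 after LPS, against 1.56, 1.19, 2.00 and 1.89 after saline. Its groups were separated by a small gap, and the difference was -0.84 ± 0.23 (adjusted p = 0.0169). The call for Col4a2, but not that for Col4a1, was lost with the array signal as a covariate.

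Col4a5 and Col4a6, chains that pair in the basement membranes of smooth muscle, gave larger differences than Col4a1 and Col4a2, though the contrast between the pairs was not tested. Col4a5 had levels of -2.83, -2.50, -1.93 and -2.06 after LPS, against -0.91, -1.36, -0.81 and -1.0 after saline, a difference of -1.31 ± 0.21 (2.48-fold lower, adjusted p = 0.00209). Col4a6 had levels of -2.22, -2.15, -1.52 and -1.60 after LPS, against -0.66, -0.95, -0.40 and -0.77 after saline, a difference of -1.18 ± 0.19 (2.26-fold lower, adjusted p = 0.00213). Neither gene overlapped between groups. Col4a3 and Col4a4, known from the filtration barrier of the kidney, were not called. Col4a4 had levels of -7.30, -5.48, -3.93 and -4.24 after LPS, against -5.06, -4.72, -3.68 and -3.56 after saline, and both genes were well above background on only 2 LPS arrays. Their differences, -0.98 ± 0.73 and -0.67 ± 0.66 (adjusted p = 0.286 for Col4a4 and 0.417 for Col4a3), lay within 2 standard errors of 0.

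Col18a1 and Col15a1 encode basement membrane collagens that carry sugar chains, and a fragment of type XVIII collagen is known as endostatin, an inhibitor of vessel growth. Col18a1 had levels of 0.24, 0.38, 1.13 and 0.82 after LPS, against 1.98, 1.47, 2.32 and 2.08 after saline. The groups were apart, with a difference of -1.32 ± 0.24 (2.50-fold lower, adjusted p = 0.00314). Col15a1, whose probe is printed above, had levels of -3.93, -3.74, -3.64 and -4.28 after LPS, against -3.12, -3.21, -3.29 and -3.42 after saline. It fell by 0.64 ± 0.14 without overlap (1.56-fold, adjusted p = 0.00775), and its call was lost with median scaling.

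Several of these genes are direct neighbours in the genome. In RefSeq's annotation of assembly GRCm38.p6, in which all 44 collagen genes were found, no protein-coding gene lies between Col3a1 and Col5a2, the genes with the 2 largest differences. The same holds for Col4a1 and Col4a2 (-1.0 and -0.84), Col4a6 and Col4a5 (-1.18 and -1.31), Col4a4 and Col4a3 (-0.98 and -0.67, both without a call) and Col6a2 and Col6a1 (-1.03 and -0.93). Col4a1 and Col4a2 lie on opposite strands, as do Col4a6 and Col4a5. The 250 bases before the start of transcription are given here for that X-linked pair, which starts head to head. They are also given for Col1a2 and Col3a1, 2 of the fibrillar genes called lower. All read 5′ to 3′ on each gene's strand from RefSeq. Capitals mark matches on either strand to CCAAT, the letters of a CCAAT box. They also mark TATAAA, the letters of a TATA box. The last motif in capitals is GGGCGG, the letters of a GC box, which reads CCGCCC on the other strand.
Col4a5 (GRCm38.p6 chrX:141475169-141475418, plus strand): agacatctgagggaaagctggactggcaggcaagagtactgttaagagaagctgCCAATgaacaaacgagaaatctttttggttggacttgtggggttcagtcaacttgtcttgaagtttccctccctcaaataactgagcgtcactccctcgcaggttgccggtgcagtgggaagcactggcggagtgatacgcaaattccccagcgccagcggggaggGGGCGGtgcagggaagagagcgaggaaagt
Col4a6 (GRCm38.p6 chrX:141474077-141474326, minus strand): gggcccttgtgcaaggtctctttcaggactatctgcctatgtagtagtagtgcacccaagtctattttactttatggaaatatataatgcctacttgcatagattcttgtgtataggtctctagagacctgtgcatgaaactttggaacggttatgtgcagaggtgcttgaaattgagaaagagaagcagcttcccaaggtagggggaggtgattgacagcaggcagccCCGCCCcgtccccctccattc
Col1a2 (GRCm38.p6 chr6:4505368-4505617, plus strand): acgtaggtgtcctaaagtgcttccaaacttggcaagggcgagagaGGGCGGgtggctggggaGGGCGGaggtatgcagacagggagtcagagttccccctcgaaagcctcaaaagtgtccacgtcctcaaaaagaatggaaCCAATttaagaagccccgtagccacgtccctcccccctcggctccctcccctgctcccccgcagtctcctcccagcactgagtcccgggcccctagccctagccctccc
Col3a1 (GRCm38.p6 chr1:45311288-45311537, plus strand): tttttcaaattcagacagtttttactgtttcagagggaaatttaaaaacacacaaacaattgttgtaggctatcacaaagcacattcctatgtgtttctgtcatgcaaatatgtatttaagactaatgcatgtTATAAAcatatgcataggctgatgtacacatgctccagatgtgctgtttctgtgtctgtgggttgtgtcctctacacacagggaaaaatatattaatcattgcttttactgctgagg
Col4a5 holds CCAAT and GGGCGG, while Col4a6 holds only GGGCGG, on the other strand. Col1a2 holds GGGCGG at 2 places and CCAAT once, and Col3a1 holds only TATAAA. Over the same 250 bases, CCAAT was found in 12 of 35 collagen promoters (34.3%), against 34.5% of 27025 promoters in all, and TATAAA in 5 of 35 (14.3%), against 13% of all. GGGCGG was found in 21 of 35 collagen promoters, against 32.9% of all promoters. These are matches of letters, with no test of the difference.

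Among the other collagens, the fibril-associated group was lower in 6 of 8 tested genes with a median of -1.20, where 21.5% of all genes tested were lower. These proteins lie on the surface of fibrils and link them to the surrounding matrix. Col12a1, which coats type I fibrils, had levels of -3.56, -3.58, -2.36 and -2.87 after LPS, against -1.62, -2.32, -1.26 and -1.34 after saline. The brightest LPS array came close to the dimmest saline array without reaching it, and the difference was -1.46 ± 0.33 (2.75-fold lower, adjusted p = 0.00795). Col16a1 had levels of -0.38, -0.24, 0.70 and 0.21 after LPS, against 1.31, 0.95, 1.79 and 1.61 after saline, with no overlap and a difference of -1.34 ± 0.27 (2.53-fold lower, adjusted p = 0.00478). Col22a1, known from the junction of muscle and tendon, had levels of -3.49, -3.06, -2.60 and -2.76 after LPS, against -1.83, -1.93, -1.49 and -1.57 after saline. It did not overlap and fell by 1.27 ± 0.20 (2.42-fold, adjusted p = 0.00176).

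The chains of type IX collagen, which sits on type II fibrils of cartilage, all had differences below 0, and differences between the chains were not tested. Col9a2 fell by 1.16 ± 0.31 (adjusted p = 0.016) and Col9a1 fell by 1.24 ± 0.36 (adjusted p = 0.0215), both with groups that overlapped. Leaving out any 1 of 5 arrays, namely LPS 1, 2 or 4 or saline 3 or 4, ended the call for Col9a1. Col9a3 had levels of -3.91, -3.07, -1.48 and -2.20 after LPS, against -2.61, -3.25, -1.01 and -1.48 after saline, with wide overlap and no call (-0.58 ± 0.63, adjusted p = 0.462). Col20a1 fell by 0.40 ± 0.12 without overlap (adjusted p = 0.0259), but leaving out LPS 1, LPS 2, saline 1 or saline 3 ended its call. Col14a1, which like Col12a1 binds type I fibrils, was not called (-0.28 ± 0.16, adjusted p = 0.175).

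Type VI collagen forms beaded filaments near the cell surface from an α1 chain, an α2 chain and 1 of several others. Col6a1 had levels of 0.88, 1.14, 1.63 and 1.68 after LPS, against 2.44, 1.62, 2.61 and 2.37 after saline. Its dimmest saline array lay among the LPS arrays, and the difference of -0.93 ± 0.26 was called (adjusted p = 0.0182), though not without LPS 2 or without saline 3. Col6a2 had levels of -2.22, -1.74, -1.31 and -1.45 after LPS, against -0.60, -1.21, -0.20 and -0.58 after saline, just without overlap, and fell by 1.03 ± 0.25 (adjusted p = 0.0113). Col6a3, the usual partner of these chains, ranged from -1.37 to -1.09 after LPS and from -0.83 to -0.35 after saline. It had the tightest LPS group of the type VI chains tested and fell by 0.62 ± 0.12 (1.54-fold, adjusted p = 0.00348). Col6a5, an alternative to Col6a3, had levels of -5.93, -7.21, -4.56 and -4.89 after LPS, against -4.69, -4.85, -3.55 and -3.66 after saline. Its signal was well above background on 2 LPS and 4 saline arrays, and the difference of -1.46 ± 0.59 was not called (adjusted p = 0.0706).

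Of the transmembrane collagens, 3 of 4 were lower, where 21.5% of all genes tested were lower. Col13a1, which is known from the neuromuscular junction, had levels of -3.01, -2.87, -2.08 and -2.48 after LPS, against -1.44, -1.94, -1.07 and -1.34 after saline, without overlap, and fell by 1.16 ± 0.24 (2.24-fold, adjusted p = 0.00584). Col23a1 fell by 0.80 ± 0.23 (adjusted p = 0.0221), and Col25a1, whose shed part is found in amyloid plaques, fell by 0.84 ± 0.26 (adjusted p = 0.0273). The call for Col23a1 was lost without LPS 2, saline 3 or saline 4, and that for Col25a1 without LPS 1, LPS 2, saline 1, saline 3 or saline 4. Col17a1, the collagen of hemidesmosomes in skin, was the only gene with a difference above 0. Its levels were -4.22, -5.32, -4.36 and -5.58 after LPS, against -5.07, -5.37, -4.98 and -5.22 after saline, close to background and without a call (0.29 ± 0.31, adjusted p = 0.444).

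The remaining collagens differed among themselves. Col26a1 had levels of -0.37, 0.10, 1.14 and 0.51 after LPS, against 1.91, 1.31, 2.16 and 2.07 after saline. The groups did not overlap, and it fell by 1.52 ± 0.33 (2.86-fold, adjusted p = 0.0064), the largest difference outside the fibrillar class. Col7a1, which makes the anchoring fibrils of skin, was not called (-0.37 ± 0.15, adjusted p = 0.064). Col8a1 and Col8a2, chains of a short network collagen of vessel walls and the cornea, were bright enough to be measured on every array but were not called. Col8a1 had levels of 0.47, 1.41, 2.85 and 1.87 after LPS, against 1.96, 1.59, 3.07 and 2.88 after saline, with overlap and a difference of -0.73 ± 0.53 (adjusted p = 0.272). Col8a2 ranged from -1.40 to 0.57 after LPS and from -0.65 to 0.85 after saline (-0.52 ± 0.48, adjusted p = 0.381).

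Where a gene had several probes, most were lower together. Of the 92 probes, 56 passed the filter, 27 were not well above background on any array, and with each probe fitted as a row of its own 39 of the 56 were lower and none higher, against 21.8% of all 35494 such probes lower. In 15 genes several probes passed. All 3 passing probes of Col1a1 were lower, at -1.54, -1.54 and -1.50, and both of Col11a1, Col4a5, Col6a2, Col6a3, Col12a1, Col15a1, Col23a1 and Col27a1 were lower. The dimmer probes of Col11a1 and Col15a1 were well above background on 0 LPS and 4 saline arrays, and that of Col6a2 on 1 and 4. They passed the filter only or mainly through the saline group, where they are high, so their calls add little to the agreement between probes. For Col1a2 and Col11a2, 1 of 2 passing probes was lower, and neither of the Col9a3 probes was. Others differed more. For Col13a1 the RefSeq mRNA probe was lower (-1.16 ± 0.24) while the probe of another transcript was not called (0.11 ± 0.13, adjusted p = 0.516). Col26a1 had 2 probes at -1.52 and another, dim one at -0.40 without a call (adjusted p = 0.286), and Col22a1 had probes at -1.27 and -1.20 and another at -0.24 without a call (adjusted p = 0.284).

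**Figure D3:**
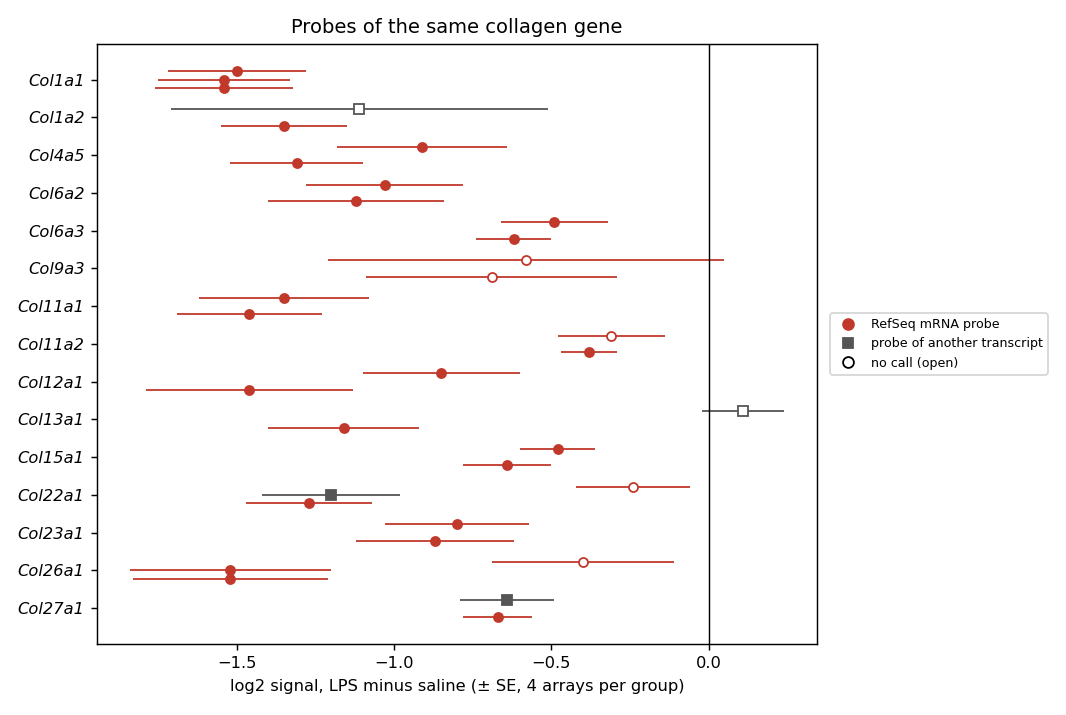
Difference of each passing probe (x axis, log2 LPS minus saline ± 1 standard error, 4 arrays per group) for the 15 collagen genes with several such probes, with red circles for RefSeq mRNA probes, grey squares for probes of other transcripts and open symbols for no call. The 3 Col1a1 probes lie within -1.54 to -1.50, while the Col13a1 probes lie at -1.16 and 0.11.

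The level of the whole family moved between arrays of the same treatment. Measured as the median over the 38 genes of the level minus its saline mean, it was -1.63, -1.19, -0.59 and -0.85 on LPS arrays 1 to 4, against 0.00, -0.47, 0.35 and 0.11 on saline arrays 1 to 4. Every LPS array lay below every saline array, with the brightest LPS array next to the dimmest saline array. LPS 3 was the highest LPS array in 28 of 38 genes and LPS 1 the lowest in 28, while saline 3 was the highest saline array in 33 genes and saline 2 the lowest in 30. Over all 22509 genes, LPS 3 was the highest LPS array in 27.2% and LPS 1 the lowest in 5241. Saline 3 was the highest saline array in 25.5% of all genes and saline 2 the lowest in 4371. The median processed signal of the whole array followed the same order within each group, at 11.7, 13.1, 17.3 and 13.8 on the LPS arrays and 15.9, 15.5, 21.5 and 18.2 on the saline arrays. Its part in the collagen difference was not tested beyond the fit with that signal as a covariate, in which 12 of the 27 calls were lost and 15 were kept. The calls lost were those of Col4a2, Col5a1, Col6a1, Col6a2, Col9a1, Col9a2, Col12a1, Col15a1, Col20a1, Col23a1, Col25a1 and Col27a1. Those kept included Col1a1, Col1a2, Col3a1, Col4a1, Col4a5, Col4a6, Col5a2 and Col18a1. Without LPS 3, 30 collagen genes were lower, but calls over all genes in either direction rose as well, so the gain was not particular to the collagens. All 8 arrays shared 1 slide and 1 scan, and each column of the slide held 1 LPS and 1 saline array. With slide column as a block 30 collagen genes and 27.2% of all genes were lower, and with slide row 28 collagen genes and 19.2% of all genes.

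**Figure D4:**
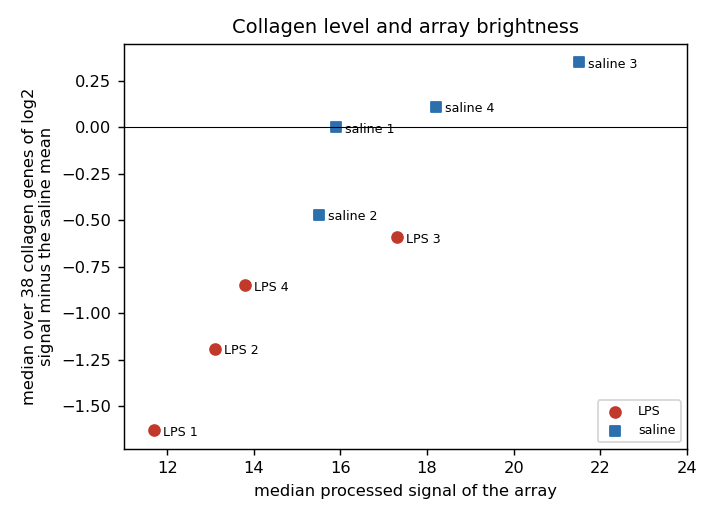
Collagen level of each array (y axis, median over 38 genes of log2 signal minus the saline mean) against the median processed signal of that array (x axis), with LPS arrays as red circles and saline arrays as blue squares. Within each group the level is highest on the brightest array and lowest on the dimmest, and the highest LPS array, LPS 3 (17.3, -0.59), lies next to the lowest saline array, saline 2 (15.5, -0.47).

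Cells other than microglia are the main known makers of collagen, so markers of other cells in the fraction were read on the same arrays. The counts stand beside the 21.5% of all genes that were lower and the 27.8% that were higher. Fibroblast and meningeal markers were lower in 11 of 12 genes and higher in none, with a median of -1.18 and a summed signal, relative to the 75th percentile, of 15.7 to 33.5 on the LPS arrays and 36.5 to 65.6 on the saline arrays. Among them were Lum and Ogn, small proteoglycans that bind fibrils (-1.75 ± 0.32 and -1.63 ± 0.35), and Islr (-1.28 ± 0.25). Markers of pericytes and smooth muscle were lower in 9 of 12 and higher in 1, with a median of -1.03 and sums of 77.5 to 90.2 after LPS and 74.9 to 80.6 after saline. Des, among the 9 lower, was well above background on 0 LPS and 4 saline arrays, so it passed the filter only through the saline group. Smooth muscle Tagln (-1.67 ± 0.16) and the pericyte gene Rgs5 (-1.54 ± 0.33) were lower, while the actin Acta2, which dominates the sum, was higher (0.49 ± 0.11). Endothelial markers were lower in 8 of 12 and higher in none, with a median of -0.59 and sums of 26.6 to 33.4 after LPS and 31.2 to 40.6 after saline. These shifts lie on the same side as the collagens, and their part in the collagen difference was not tested. In such bulk samples fewer cells of a type and less RNA per cell cannot be told apart.

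Markers of cells that adjoin the brain surface or its fluid gave further values, again beside 21.5% of all genes lower and 27.8% higher. Choroid plexus markers were called in 0 of 8 genes by limma, also at an unadjusted p under 0.05, but spread more than any other list plotted. Their sums were 57.0 to 293 after LPS and 118 to 318 after saline. The Ttr probe, with mean levels of 7.04 after LPS and 7.54 after saline, dominates these sums. Of all genes, 27.2% were highest on LPS 3 among the LPS arrays and 25.5% on saline 3 among the saline arrays. All 8 choroid plexus markers were highest on LPS 3 and lowest on LPS 1 among the LPS arrays, and highest on saline 3 and lowest on saline 2 among the saline arrays. The medians of the collagens had these extremes too, among called genes and among the others. The 27 genes called lower had medians of -1.57, -1.35, -0.65 and -1.04 on LPS arrays 1 to 4, against 0.02, -0.42, 0.34 and 0.10 on saline arrays 1 to 4. The 11 genes without a call had medians of -1.83, -0.73, 0.32 and -0.42 on LPS arrays 1 to 4, against -0.22, -0.66, 0.62 and 0.49 on saline arrays 1 to 4. Fibroblast and meningeal markers were likewise lowest on LPS 1 and on saline 2 in 12 of 12 genes, against 5241 and 4371 of all 22509 genes. The part of the choroid plexus signal in the collagen values was not tested. Astrocyte markers were lower in 9 of 10 (median -0.89, sums of 10.5 to 13.8 after LPS and 20.5 to 26.1 after saline) and oligodendrocyte lineage markers in 7 of 10 (median -0.71, sums of 8.12 to 9.15 after LPS and 11.2 to 11.6 after saline). Neuronal markers gave 1 lower and 1 higher of 7 tested (median -0.72, sums of 7.61 to 12.8 after LPS and 11.2 to 15.2 after saline). Pdgfra and Cspg4, counted in the oligodendrocyte list, also stand in the fibroblast list and the pericyte list. Markers of macrophages at the brain's borders were lower in 3 of 8 (median -0.32, sums of 351 to 473 after LPS and 511 to 652 after saline). Microglia markers were lower in 3 and higher in 3 of 10 (median -0.09), with sums of 1900 to 2230 after LPS and 1780 to 2140 after saline.

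**Figure D5:**
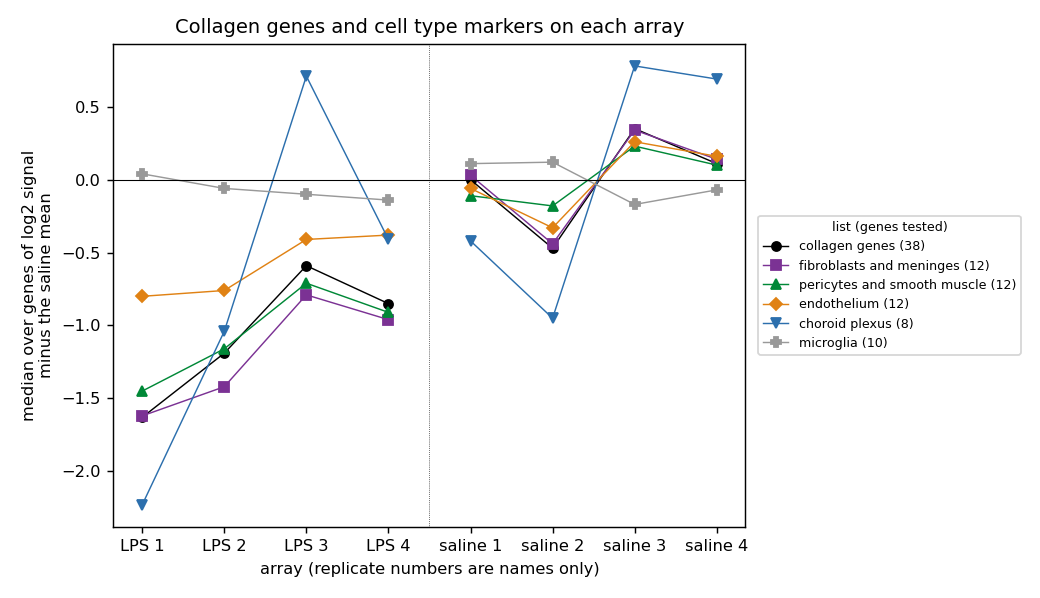
Median over genes of log2 signal minus the saline mean (y axis) on each array (x axis, LPS arrays left, saline arrays right; numbers are names only) for the 38 collagen genes and 5 lists of cell type markers, with lines joining arrays of a group only to guide the eye. Collagen, fibroblast and pericyte lines run close together, from about the same depth on LPS 1 (-1.63, -1.62 and -1.45), the choroid plexus line swings furthest, and the microglia line stays near 0.

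Genes that modify, fold, trim and bind collagen were read from 5 lists, against the 21.5% of all genes that were lower and the 27.8% that were higher. In the list of hydroxylation and folding genes, 8 of 19 tested were lower and 5 were higher, with a median of 0.01. Colgalt2, among the 8 lower, was well above background on 0 LPS and 4 saline arrays, so it passed the filter only through the saline group. Serpinh1, the collagen-specific chaperone HSP47, was lower (-0.96 ± 0.25, adjusted p = 0.014), as were P3h2, a prolyl 3-hydroxylase (-1.15 ± 0.15, adjusted p = 0.000995), and Plod2, a lysyl hydroxylase (-1.02 ± 0.34, adjusted p = 0.0362). P4hb, a subunit of prolyl 4-hydroxylase that also folds many other secreted proteins, was higher (0.76 ± 0.11, adjusted p = 0.00153), as were the isomerase Ppib (0.66 ± 0.12, adjusted p = 0.00286) and the export factor Mia2 (0.46 ± 0.09, adjusted p = 0.00415).

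Enzymes that trim and cross-link collagen outside the cell were lower in 7 of 10 and higher in 1, with a median of -0.86. Loxl2 and Loxl1, lysyl oxidases that start cross-links, were lower, at -1.42 ± 0.27 and -1.20 ± 0.42 (adjusted p = 0.00375 for Loxl2 and 0.0434 for Loxl1), and Pcolce, an enhancer of procollagen trimming, fell by 1.16 ± 0.21 (adjusted p = 0.00307). Bmp1, the protease that Pcolce assists, was slightly higher (0.25 ± 0.09, adjusted p = 0.0419). Fibril regulators and partners were lower in 9 of 12 and higher in 1, with a median of -1.0. Of these 12 genes, Dcn, Lum and Ogn are also among the fibroblast markers. Besides Lum and Ogn, Fmod, which binds type I fibrils, was lower (-1.59 ± 0.25, adjusted p = 0.00195). The exception was Fn1, fibronectin, which was higher by 1.75 ± 0.21 (adjusted p = 0.000879) with no overlap between groups.

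Partners of type IV collagen in the basement membrane were lower in 10 of 14 genes and higher in none, with a median of -0.93. The laminin chains Lama2 (-1.40 ± 0.26, adjusted p = 0.00331) and Lamb1 (-1.09 ± 0.30, adjusted p = 0.0175) and the linker Nid1 (-1.11 ± 0.20, adjusted p = 0.00311) were among them. So was Lama3, which was well above background on 1 LPS and 4 saline arrays and so passed the filter mainly through the saline group. Collagen receptors and uptake genes were lower in 6 of 11 and higher in 1, with a median of -0.89. The uptake receptor Mrc2 (-1.80 ± 0.25, adjusted p = 0.0012) and the integrin chains Itga11 and Itga1 (-1.35 ± 0.25 and -1.30 ± 0.18) were lower, while Lair1, an inhibitory collagen receptor of leukocytes, was higher (0.56 ± 0.10, adjusted p = 0.00352). With the array signal as a covariate, 14.9% of all genes were lower. In that fit 3 of 19 hydroxylation and folding genes and 4 of 10 trimming and cross-linking genes were lower. So were 6 of 12 fibril regulators and partners, 6 of 14 basement membrane partners and 5 of 11 receptors and uptake genes.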

How the data were processed

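Gene expression was measured on 8 single-colour arrays, 4 per treatment, each from 1 tube of cells of 2 mice. Cy3 was used to label 50 ng of total RNA per tube, per the labels' protocols. Agilent Feature Extraction 12.0.3.1 read the spots, per the file headers and the submitters' processing notes. The deposited intensity is the processed signal, from which spatial detrending had subtracted the background, with arrays left unscaled. A second deposited table gives the authors' log2 values, with column medians of -0.07 to 0.08. Its columns correlate at 0.999 or more with the scanner values centred on each probe's median, so scale and direction are those of the scanner values and the table served as an alternative.

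Control spots and outlier flags were left out, spots of a probe were averaged and 6 probes had no usable value. No spot was saturated. Values are log2 processed signal minus the array's 75th percentile. The filter kept 35494 probes that were well above background on 4 or more arrays, and the brightest stood for its gene (22509 genes). Probes were named through RefSeq (assembly GRCm38.p6) by accession for 35402, by symbol for 9123 and by synonym for 25, and 12049 kept the file's name. The 2 groups were compared in R 4.3.3 by limma 3.58.1 (lmFit, eBayes). P-values were adjusted over all genes by Benjamini-Hochberg, with a threshold of 0.05, and the number of arrays limits the precision. The fit was tested on simulated data. Python 3.11.15 and matplotlib 3.10.9 drew the figures.

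The collagen genes, their classes and the pathway and marker lists were chosen with earlier results of these data known. Every collagen gene is named. Of each list up to 3 higher and 3 lower genes are candidates for naming, those with the largest change among genes past the test that 3 or more arrays of each group measured well above background. Alternatives covered scaling, background correction, dim-probe filters, the probe choice, the variance model, array weights, slide position, array signal, the deposited value table and each array left out in turn. Their use on the pathway lists was added after seeing the data. Probe coordinates are on mm9, and no position within exons is given because no annotation of that build was used here.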

Additional observations from a re-analysis of the deposited data

How the results depend on the processing

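The counts of collagen genes lower stayed within 1.5 times of 27 in all alternatives that use all arrays (22 to 31) except the fit with the array signal as a covariate, which gave 15, with 5 rather than 13 in the other collagens. Across the alternatives that use all arrays, 11.6% to 32.2% of all genes were lower, with 14.9% in the covariate fit. Normexp with an offset of 50 called 1 gene higher, Col17a1, where the other settings called 0. Leaving out 1 array at a time gave 22 to 30 lower in all and 8 to 15 in the other collagens. The count of other collagens was lowest without LPS replicate 2 and without saline replicate 3. The fit without LPS replicate 3 gave the 30, and of these fits it also made the most calls over all genes in either direction. Of the 27 calls, 14 held in every one of the 24 alternatives in which they could be tested, and 22 in every fit without 1 array. Differences that changed sign were, with normexp and an offset of 50, Col4a3 (0.037), Col4a4 (0.0062), Col11a2 (0.016) and Col14a1 (0.076), and with the array signal as a covariate Col4a3 (0.74), Col4a4 (0.54), Col8a1 (0.55), Col8a2 (0.56) and Col9a3 (0.95). None of these 9 values passed the test, and the cause was not tested. With normexp and no offset, 26 collagen genes and 20.4% of all genes were lower. With the filter at all 8 arrays, 2 of the called genes were no longer tested. With type IV chains alone, 4 of 6 basement membrane genes were lower, where 21.5% of all genes were. The labels give no replicate numbers by which samples could be paired. Each slide column held 1 LPS and 1 saline array, and blocking on it compares the arrays within a column. In that fit 30 collagen genes and 27.2% of all genes were lower.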
